A study of Drosophila melanogaster with 3 samples.

Results

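The proteasome subunit genes of *Drosophila melanogaster* were taken as the protein-coding genes whose symbol begins with Prosalpha, Prosbeta, Rpn or Rpt followed by a digit, which gave 48 of the 13968 protein-coding genes of the dm6 annotation. Of the 48, 32 were standard subunit genes and 16 were paralogues whose symbol carries the suffix T or R. The rule itself uses symbols and no measured value. The binding of Dek, a chromatin-associated protein, was mapped by chromatin immunoprecipitation followed by sequencing (ChIP-seq) in whole fly embryos, male and female together, collected between 0 and 24 h. They belonged to a transgenic line in which Dek carries GFP at its C-terminal end, and the chromatin was pulled down through the GFP. The 3 biological replicates formed 1 group, Dek-GFP embryos, and no input library or untagged line was analysed here. Peaks that any GFP line would give therefore cannot be told apart from Dek binding, and neither can binding in 1 tissue or age from weak binding throughout the embryo.

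The 26S proteasome degrades proteins that carry ubiquitin chains. Its 20S core is a barrel in which rings of alpha subunits gate the entry and rings of beta subunits hold the proteolytic sites. The 19S regulatory particle caps the barrel: its base holds a ring of Rpt ATPases that unfold substrates, and its lid, made of Rpn subunits, removes the ubiquitin chain. In flies, several of the paralogues with the suffix T or R are known to act in the testis. The DNA replication-related element (DRE), bound by the factor Dref, is a common promoter motif of fly genes that are used in every cell.

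The authors deposited 1 peak list per replicate, a pooled list and a list of peaks that passed the irreproducible discovery rate (IDR) threshold, a filter for peaks that recur between replicates. The IDR list held 4736 peaks, which were the 4736 strongest pooled peaks, and each other list held 30000 peaks. A gene counted as having a summit where the summit, the highest point of a peak, lay at most 500 bp from the transcription start site (TSS) of any of its transcripts. The place of a peak is its rank by the authors' signal value within its list, with 1 the strongest. A place within the first 4736 of a replicate list is called strong here, because that is the length of the IDR list.

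Dek-GFP summits stood at the starts of 12 of the 48 proteasome genes in the IDR list (25%), against 22.8% of all protein-coding genes. All 12 were standard subunit genes, so that 12 of 32 standard genes (37.5%) and 0 of 16 paralogues had one. The 12 were Rpn3, Rpn5, Rpn6, Rpn7, Rpn8, Rpn11 and Rpn12 of the lid, Rpn13, a ubiquitin receptor, and Prosalpha4, Prosalpha5, Prosbeta1 and Prosbeta2 of the core. Among the ATPase genes Rpt1 to Rpt6, 0 of 6 had an IDR summit. In the longer pooled list 24 of the 48 proteasome genes had a summit, against 48.8% of all protein-coding genes. Those 24 were 23 of the 32 standard genes (71.9%) and 1 paralogue. When an IDR summit also had to lie inside a strong peak of both remaining replicates, the count of 12 fell to 7 without replicate 1, 6 without replicate 2 and 9 without replicate 3. The same requirement left 15.0%, 13.0% and 16.3% of all protein-coding genes.

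The separate replicates gave shares of the same size. Among the strong peaks of replicates 1, 2 and 3, summits were found at 10, 13 and 11 of the 48 proteasome genes, against 21.8%, 23.9% and 20.8% of all protein-coding genes. The mean share over the replicates was 23.6% ± 3.18 for the 48 genes and 22.2% ± 1.58 for all protein-coding genes (SD, n = 3), a difference smaller than the spread between replicates. For the 32 standard genes the shares were 31.25%, 40.6% and 34.4%, with a mean of 35.4% ± 4.77 (SD, n = 3). Each of these lay above the share of all protein-coding genes in its own replicate. For the 16 paralogues the share was 0 in all 3 replicates. Strong summits were present in all 3 replicates at 6 proteasome genes, against 13.1% of all protein-coding genes, and in at least 1 replicate at 18, against 31.6%. With all 30000 peaks of each list, 21, 29 and 28 of the 48 proteasome genes had a summit in replicates 1, 2 and 3, against 44.5%, 52.5% and 50.1% of all protein-coding genes.

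**Figure D1:**
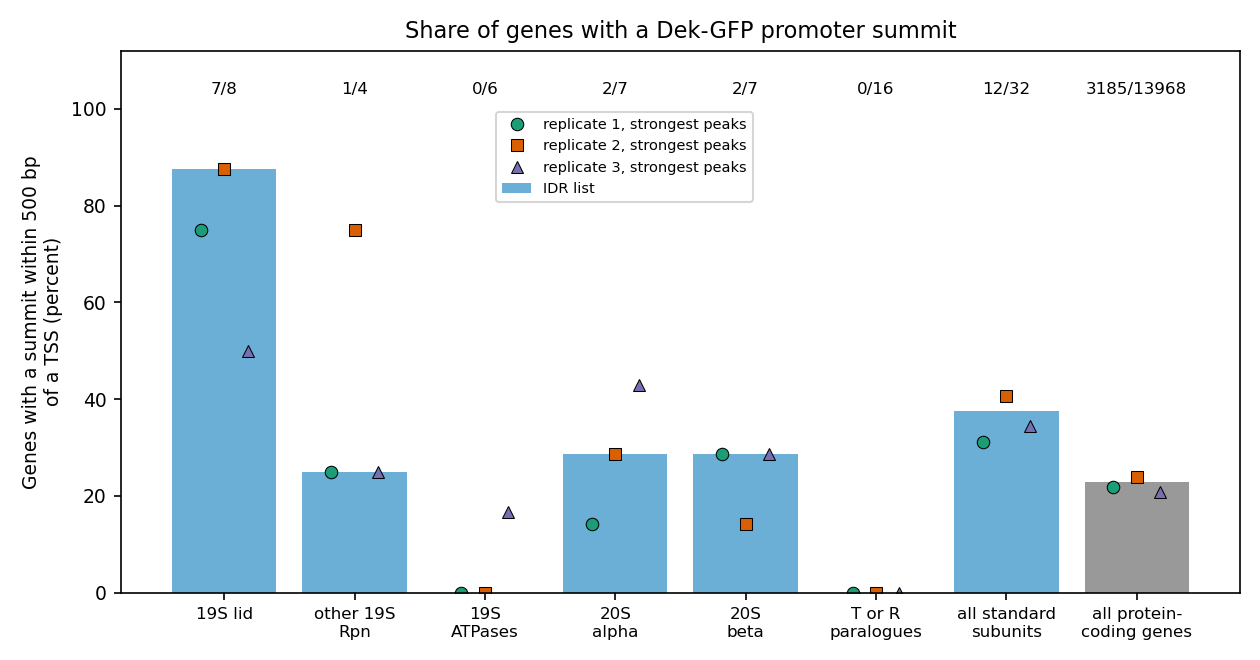
Share of genes with a summit within 500 bp of a TSS, in percent, by part of the proteasome and, in grey at the right, for all protein-coding genes. Bars give the IDR list with the counts above them, and the points give the strong peaks of replicates 1, 2 and 3. Other 19S Rpn stands for Rpn1, Rpn2, Rpn10 and Rpn13. The lid stands at 7 of 8 genes, the ATPases and the paralogues at 0, and the replicates of the lid spread over 50% to 87.5%.

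The lid was the part with the most summits. In the IDR list, 7 of its 8 genes had one, and the eighth, Rpn9, a structural lid subunit, had a pooled summit at place 5765, beyond the IDR list. The share of lid genes among strong peaks was 75%, 87.5% and 50% in replicates 1, 2 and 3, with a mean of 70.8% ± 19.1 (SD, n = 3), and each replicate lay above the 20.8% to 23.9% of all protein-coding genes. The lid was set apart from Rpn1, Rpn2, Rpn10 and Rpn13 after the values had been seen. Sem1, a small lid subunit that the symbol rule leaves out and that was looked up after the values had been seen, had no IDR summit and a pooled summit at place 8973. With the same requirement on both remaining replicates, 3 of 8 lid genes were left without replicate 1, 3 without replicate 2 and 6 without replicate 3.

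Rpn3, a scaffold subunit of the lid, had its IDR summit on arm 2L at position 19051778, 12 bp upstream of its TSS, with a signal of 413 and place 1173. Its places in replicates 1, 2 and 3 were 2090, 875 and 1034, so it was strong in each. The 3 replicate summits lay within 17 bp of the IDR summit. Rpn5, another scaffold subunit, had its summit on arm 3R at position 5789251, with a signal of 402 and place 1228. Its places were 654, 2264 and 4670, again strong in each replicate but with replicate 3 near the limit. The Rpn5 summit lay 242 bp upstream of its TSS and inside an intron of the divergent gene Hat1, a histone acetyltransferase gene, whose TSS was nearer, at 133 bp. Rpn11 encodes the metalloprotease that cuts the ubiquitin chain from the substrate. Its summit, on arm 2L at position 5060007 and 217 bp upstream of the TSS, had a signal of 310 and place 1921. Its places were 1264, 1730 and 8564 in replicates 1, 2 and 3, so replicate 3 held only a weak peak there. Rpn7, a scaffold subunit on arm 3R, had its summit at position 22462227, 173 bp upstream, with a signal of 212 and place 3364. Its places were 1957, 3561 and 11953. The weak replicate 3 summit lay 178 bp from the IDR summit, 5 bp downstream of the TSS. Rpn12, the subunit known to join the lid last in yeast, had its summit on arm 3L at position 16582983, 45 bp upstream, with a signal of 172 and place 4422. Its places were 6287, 4309 and 7178, strong in replicate 2 alone, and it was the weakest IDR peak of the 12 genes.

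The reference sequence under these summits is shown so that the base composition and motif matches at the centre of the peaks can be read directly. Each line gives 61 bases centred on an IDR summit, 5′ to 3′ on the strand of the proteasome gene, from the RefSeq copy of dm6. The windows are chr2L:19051748-19051808 for Rpn3 (+), chr3R:5789221-5789281 for Rpn5 (+), chr2L:5059977-5060037 for Rpn11 (−), chr3R:22462197-22462257 for Rpn7 (−), chr3L:16582953-16583013 for Rpn12 (+) and chrX:16275954-16276014 for Prosalpha4 (+). Capitals mark motif matches on either strand: TATAAA in Rpn11, GAGAG in Rpn7 and CGATA in Rpn12. Rpn12 alone among these held several matches, 3 of CGATA, and had the highest GC content of the 6 windows, 44.3%, while Prosalpha4 held the longest run of A and T, 15 bases.
Rpn3: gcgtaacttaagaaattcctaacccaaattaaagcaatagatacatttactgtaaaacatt
Rpn5: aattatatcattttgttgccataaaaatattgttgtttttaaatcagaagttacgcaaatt
Rpn11: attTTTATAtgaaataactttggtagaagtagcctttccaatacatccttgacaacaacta
Rpn7: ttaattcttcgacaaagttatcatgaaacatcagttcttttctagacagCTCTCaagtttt
Rpn12: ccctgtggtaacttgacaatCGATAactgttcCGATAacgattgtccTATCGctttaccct
Prosalpha4: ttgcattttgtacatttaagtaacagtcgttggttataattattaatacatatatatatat

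Rpn6 and Rpn8, the other lid genes with an IDR summit, lie on arm 2R. Rpn6, which clamps the lid to the core, had its summit at position 14752417 with a signal of 313 and place 1887. Its places in replicates 1, 2 and 3 were 2273, 2454 and 2062, the narrowest spread of the 7 lid genes. The summit lay in an intron of Rpn6, 146 bp upstream of an inner TSS and 104 bp from the TSS of its divergent neighbour ave. Rpn8, the partner of Rpn11 in the lid, had its summit at position 24402842 with a signal of 212 and place 3366. The nearest replicate summits had places 1894, 3219 and 23552, so the peak was strong in replicates 1 and 2 and in the weak tail of replicate 3. It lay in an intron of Rpn8, 163 bp upstream of an inner TSS and 162 bp from the TSS of the neighbour Slik.

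Of the other Rpn genes, Rpn13 had the strongest promoter peak of all 48 proteasome genes in the IDR list and in replicate 2, while Rpn5 led in replicate 1 and Rpn3 in replicate 3. Rpn13 encodes a ubiquitin receptor that also holds the deubiquitinase Uch-L5. Its summit, on arm 2R at position 13960467 and 63 bp upstream of the TSS, had a signal of 487 and place 870. The places were 947, 822 and 2180 in replicates 1, 2 and 3, with signals of 169, 196 and 84.4 on the scale of each list, and the replicate summits lay within 14 bp of it. Rpn1 and Rpn2, the large scaffold subunits of the base, had pooled summits at places 4856 and 6911, beyond the IDR list. Rpn1 had places 7589, 3111 and 10954, strong in replicate 2 alone. Rpn2 had places 13390 and 5916 in replicates 1 and 2 and no summit in replicate 3. Rpn10, a second ubiquitin receptor, had a summit in 1 list alone, that of replicate 2, at place 2262 and 7 bp upstream of its TSS. Replicates 1 and 3 and the pooled list had no summit there.

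None of the ATPase genes of the base reached the IDR list. Rpt2, Rpt6, Rpt5 and Rpt4 had pooled summits at places 5171, 5418, 8736 and 12148, and Rpt1 and Rpt3 had none, though Rpt1 had a summit in replicate 3 at place 8104. Rpt2 had places 6079, 6721 and 6227, which differed little between replicates and lay beyond the strong range in each. Rpt6 had places 12000, 6271 and 9410 in replicates 1, 2 and 3. Rpt5 had no summit in replicate 1 and places 6353 and 2813 in replicates 2 and 3. That single place in replicate 3 was the only strong summit at any Rpt gene. Rpt3 was without a summit in every list. The share of Rpt genes among strong peaks was 0, 0 and 16.7% in replicates 1, 2 and 3.

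**Figure D2:**
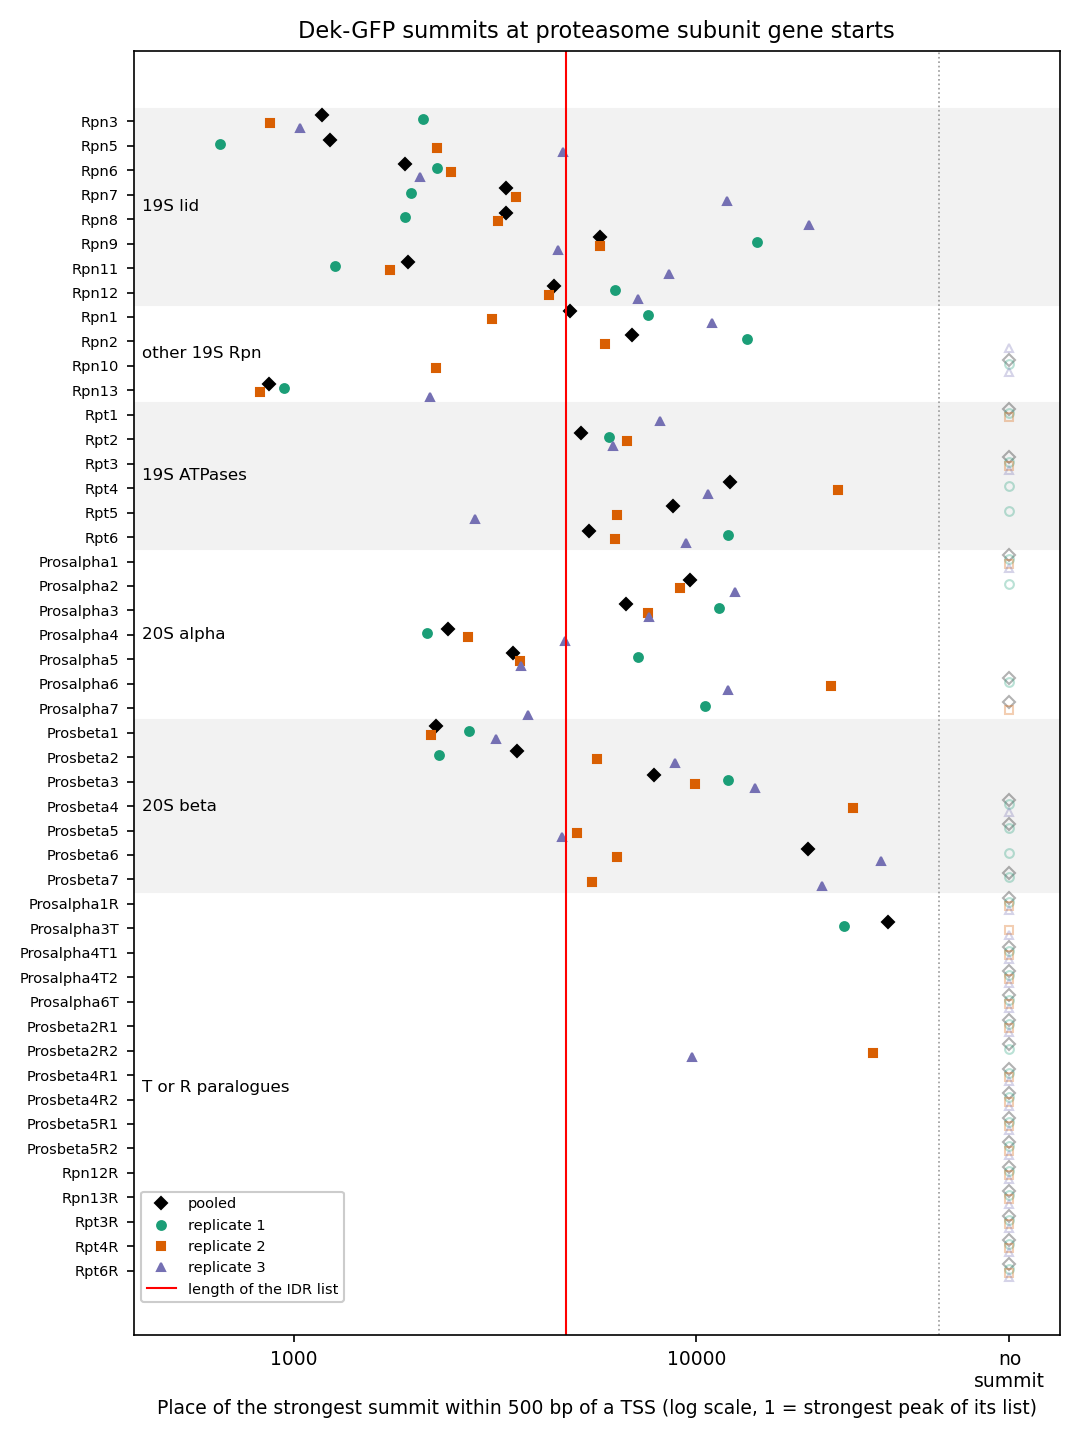
Place of the strongest summit within 500 bp of a TSS for each of the 48 proteasome genes, on a log scale, in the pooled list and in replicates 1, 2 and 3. The red line marks 4736, the length of the IDR list, and open symbols at the right stand for no summit in that list. Lid genes lie mostly left of the line, the Rpt genes mostly right of it, and the paralogues almost all at no summit.

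In the 20S core, 2 of 7 alpha genes and 2 of 7 beta genes had IDR summits, 28.6% of each ring, against the 22.8% of all protein-coding genes. Prosalpha4 had 2 summits on the X chromosome, at positions 16275984 and 16276184, which lay at −286 and −86 bp from its TSS, where negative values are upstream. The first had a signal of 263 and place 2414, with places 2147, 2708 and 4732 in replicates 1, 2 and 3, strong in each. The other had a signal of 182 and place 4165. Its nearest replicate summits had places 11162, 4589 and 12743, strong in replicate 2 alone. It also lay inside the strong replicate 1 peak at place 2147, so strong peaks of 2 replicates held it. The divergent neighbour kat80, a gene for a subunit of the microtubule-severing enzyme katanin, has several TSSs, the closest of them 90 bp upstream of Prosalpha4. Both summits were nearer to a kat80 TSS than to that of Prosalpha4, at 67 and 4 bp. Prosalpha5, on arm 2R, had its summit at position 17412732, 35 bp upstream, with a signal of 205 and place 3512. Its places were 7176, 3643 and 3675, strong in replicates 2 and 3. Prosalpha3 and Prosalpha2 had pooled summits at places 6672 and 9653, and Prosalpha1, Prosalpha6 and Prosalpha7 had none. Prosalpha7 still had a strong summit in replicate 3, at place 3820, beside place 10524 in replicate 1.

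Among the beta genes, summits were found at Prosbeta1, which carries the caspase-like activity, and at Prosbeta2, which carries the trypsin-like activity. The Prosbeta1 summit, on arm 2R at position 16014857 and 70 bp upstream, had a signal of 277 and place 2255. Its places were 2729, 2198 and 3171, strong in every replicate. The TSS of its neighbour Rrp42, an exosome subunit gene, was 51 bp away. The Prosbeta2 summit, on arm 3L at position 14999732 and 219 bp upstream, had a signal of 202 and place 3592. Its places were 2292, 5655 and 8856, strong in replicate 1 alone, and the TSS of mRpL39, a mitochondrial ribosomal protein gene, was 66 bp away. Prosbeta5, which carries the chymotrypsin-like activity, had no pooled summit but had places 5046 and 4636 in replicates 2 and 3. Prosbeta3 had a pooled summit at place 7837 and Prosbeta6 at place 18990. Prosbeta4 and Prosbeta7 had none in the pooled list.

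Close to the end of the IDR list, the members just inside were Prosalpha4 with its weaker summit at place 4165 and Rpn12 at place 4422, with pooled signals of 182 and 172. Just outside were Rpn1 at place 4856, Rpt2 at 5171 and Rpt6 at 5418, with pooled signals of 161, 154 and 148. The step between Rpn12 and Rpn1 was therefore small, and the count of 12 depends on where the list ends.

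The paralogues with the suffix T or R were almost without peaks. They are Prosalpha1R, Prosalpha3T, Prosalpha4T1, Prosalpha4T2 and Prosalpha6T of the alpha ring, Prosbeta2R1, Prosbeta2R2, Prosbeta4R1, Prosbeta4R2, Prosbeta5R1 and Prosbeta5R2 of the beta ring, Rpt3R, Rpt4R and Rpt6R of the base, and Rpn12R and Rpn13R. Their parents are the standard genes whose symbols they extend. Prosalpha3T had a pooled summit at place 29912 and a summit in replicate 1 at place 23252, both in the weak tail of their lists. Prosbeta2R2 had summits at places 27496 and 9748 in replicates 2 and 3, the second 474 bp downstream of its TSS. The other 14 paralogues had no summit in any list, though Prosalpha1R among them cannot be read, as given below. In the pooled list 1 of 16 paralogues had a summit, against 48.8% of all protein-coding genes. In the full lists of replicates 1, 2 and 3 it was 1 of 16 each, against 44.5%, 52.5% and 50.1%. The share of all genes without a summit in every list is not given here. The nearest IDR summit to a paralogue TSS was 2008 bp away, at Prosbeta2R2, and the farthest 129467 bp, at Prosbeta5R2. For the 20 standard genes without a promoter summit, this distance ran from 1113 bp at Prosbeta6 to 20897 bp at Rpn10.

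Parents and paralogues with an IDR summit on 1 side only were Prosalpha4, Prosbeta2, Rpn12 and Rpn13. At Prosalpha4 the parent had place 2414, and Prosalpha4T1 and Prosalpha4T2 had no summit in any list. At Rpn13 the parent had place 870 and Rpn13R had none, and at Rpn12 the parent had place 4422 and Rpn12R had none. Absence at Prosalpha1 and Prosalpha1R cannot be read, because 0% of the 50-base stretches within 500 bp of their TSS occur only once in the genome, and reads from the copies may have been lost or split. For Rpn3 and Prosalpha3 the unique share was 94.2% and 96.9%, and for each of the other 44 genes it was 100%. All 15 paralogues other than Prosalpha1R were thus unique around their TSS.

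All 13 IDR summits at proteasome genes lay upstream of the TSS they were measured from, against 88.2% of the 3523 pairs of an IDR summit and any protein-coding gene within 500 bp, measured in the same way from each gene's own TSS. The median position was −146 bp for the proteasome genes and −138 bp for all pairs. The order of these medians was not stable: it was −54 bp against −113 bp when each summit went to the nearest gene, −78 bp against −131 bp with 1 TSS per gene, and −70 bp against −129 bp without replicate 1. The share upstream also changed with the setting. With 1 TSS per gene 11 of 12 pairs lay upstream, against 86.1% of all pairs, and in the pooled list 27 of 30, against 71.8%. At Rpn6 and Rpn8 the IDR summit was upstream of an inner TSS but downstream of the gene start. The median signal of the 13 summits was 263, against 280 for all 2537 IDR promoter summits, and the median place 2414, against 2219. At the level of genes, the strongest promoter peak had a median signal of 270 for the proteasome genes with one and 304 for all protein-coding genes with one. Of the 13 summits, 6 (46.2%) lay inside strong peaks of all 3 replicates, against 49.6% of all promoter summits.

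**Figure D3:**
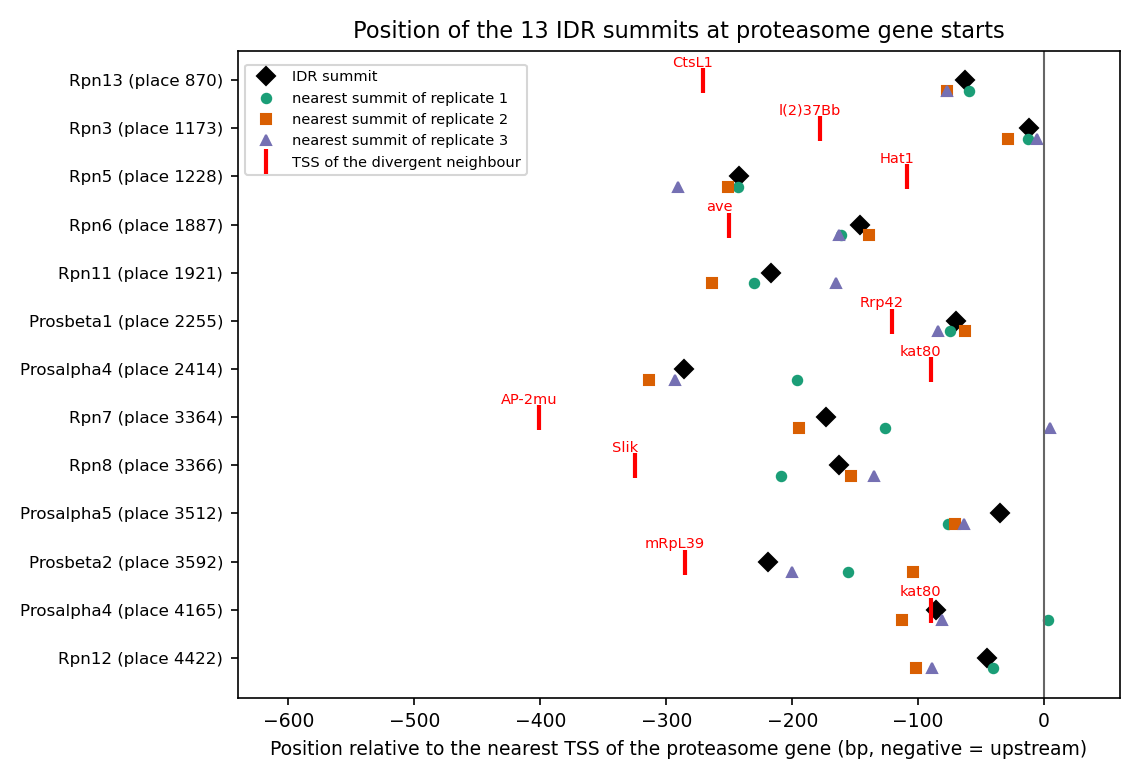
Position of the 13 IDR summits at proteasome genes, in bp from the nearest TSS of the gene, with the nearest summit of each replicate and, in red, the TSS of the divergent neighbour that is closest to the proteasome TSS. Black diamonds lie between −286 and −12 bp, and at Rpn5, Rpn6, Prosbeta1, Prosbeta2, Rpn8 and Prosalpha4 the red mark is closer to a diamond than the proteasome TSS at 0.

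Upstream positions are where divergent neighbours start, and proteasome genes have many of these. A protein-coding gene on the opposite strand started within 1000 bp upstream of 22 of the 32 standard genes (68.75%) and of 4 of the 16 paralogues (25%), against 36.2% of all protein-coding genes. Among the 22 standard genes with such a neighbour, 9 had an IDR summit (40.9%), against 39.6% of all protein-coding genes with such a neighbour. Among the 10 without, 3 had one (30%), against 13.3% of all protein-coding genes without. The share of standard genes with a summit thus stood beside a gene arrangement in which summits were frequent genome-wide, and the part of that arrangement in the share of 37.5% was not tested. At all 9 genes with both, the neighbour itself also had an IDR summit within 500 bp of its TSS, and it was the same peak. When each summit was given only to the gene with the nearest TSS, 6 proteasome genes kept one, against 17.0% of all protein-coding genes. These were Rpn3, Rpn7, Rpn11, Rpn12, Rpn13 and Prosalpha5. Rpn11, Rpn12 and Prosalpha5 had no other protein-coding TSS within 1000 bp at all.

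The DNA under the proteasome IDR summits was poor in G and C. Within 100 bp of the 13 summits the mean GC content of the reference was 30.9% ± 5.13 (SD over summits), against 35.0% ± 7.82 over all promoter summits. It ran from 21.9% at Rpn7 to 38.8% at Prosbeta1. At positions 500 bp to either side the mean was 50.4% for the proteasome summits and 45.7% for all, so the summit was lower by 19.5 points at proteasome genes and by 10.7 points over all promoter summits. The summit was lower than the mean of its own flanks at 13 of 13 proteasome positions and at 82.6% of all. At Prosalpha5 the upstream flank alone, at 35.3%, was below the summit, at 38.3%. Strong promoter summits of replicates 1, 2 and 3 at proteasome genes had mean GC contents of 29.5%, 31.9% and 36.3%. The value of replicate 3 was above the 35.0% over all IDR promoter summits. No value over all promoters is given here for the separate replicates. The whole promoters, from 250 bp before to 50 bp after the gene start, had a mean GC content of 33.25% ± 6.70 for the 12 genes with an IDR summit and 35.4% ± 6.07 for the 20 standard genes without. That difference is smaller than the spread within either set. The paralogues had 35.7% ± 7.98 and all protein-coding genes 39.1% ± 7.74 (SD over promoters).

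**Figure D4:**
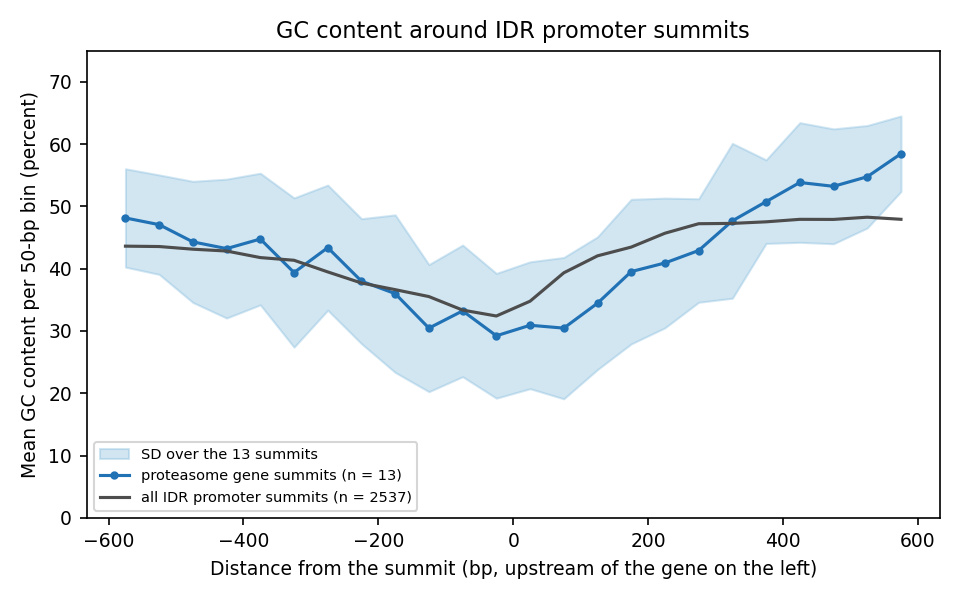
Mean GC content in 50-bp bins around the summit, in percent, for the 13 proteasome summits (blue, with the SD over summits) and for all 2537 IDR promoter summits (grey), drawn with the gene's upstream side on the left. The proteasome line dips to 29.2% just before the summit and reaches 58.5% in the last bin downstream, where the line for all summits is at 47.9%.

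The promoters of the proteasome genes were then searched for 8 motifs on either strand. A promoter is again the stretch from 250 bp before to 50 bp after the gene start. At Rpn6 and Rpn8 the IDR summit was at an inner TSS, outside this stretch. The DRE, TATCGATA, was in the promoters of 7 of the 12 genes with an IDR summit and of 5 of the 20 standard genes without one. It was in 0 of the 16 paralogue promoters, against 9.36% of all protein-coding promoters of the same length. The DRE contains the shorter CGATA, a motif of the insulator protein BEAF-32, which was in 11 of 12, 16 of 20 and 8 of 16 promoters of the same sets, against 47.3% of all. GGTCACAC, the core of Motif 1 bound by M1BP, was in 2 of 12, 3 of 20 and 0 of 16, against 7.69%. GAGAG, the motif of GAGA factor, was in 2 of 12, 1 of 20 and 6 of 16, against 29.7%. TGACNNNGC, an antioxidant response element of the kind bound by cnc, was in 1 of 12, 4 of 20 and 1 of 16, against 8.62%. TATAAA was in 4 of 12, 9 of 20 and 5 of 16, against 45.8%. The E-box CAGCTG was in 0 of 12, 1 of 20 and 1 of 16, against 17.6%, and CATCNCTA, part of core promoter motif 7, in 2 of 12, 2 of 20 and 1 of 16, against 6.41%. Within 100 bp of the summits themselves, the DRE was at 4 of 13 proteasome summits, against 7.49% of all promoter summits. CGATA was at 8 of 13, against 37.5%, TATAAA at 5, against 40.2%, and GAGAG at 2, against 18.7%. GGTCACAC was at 1, against 5.68%, CAGCTG at 1, against 9.70%, and CATCNCTA at 1, against 7.09%. TGACNNNGC was at 0, against 4.73%.

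**Figure D5:**
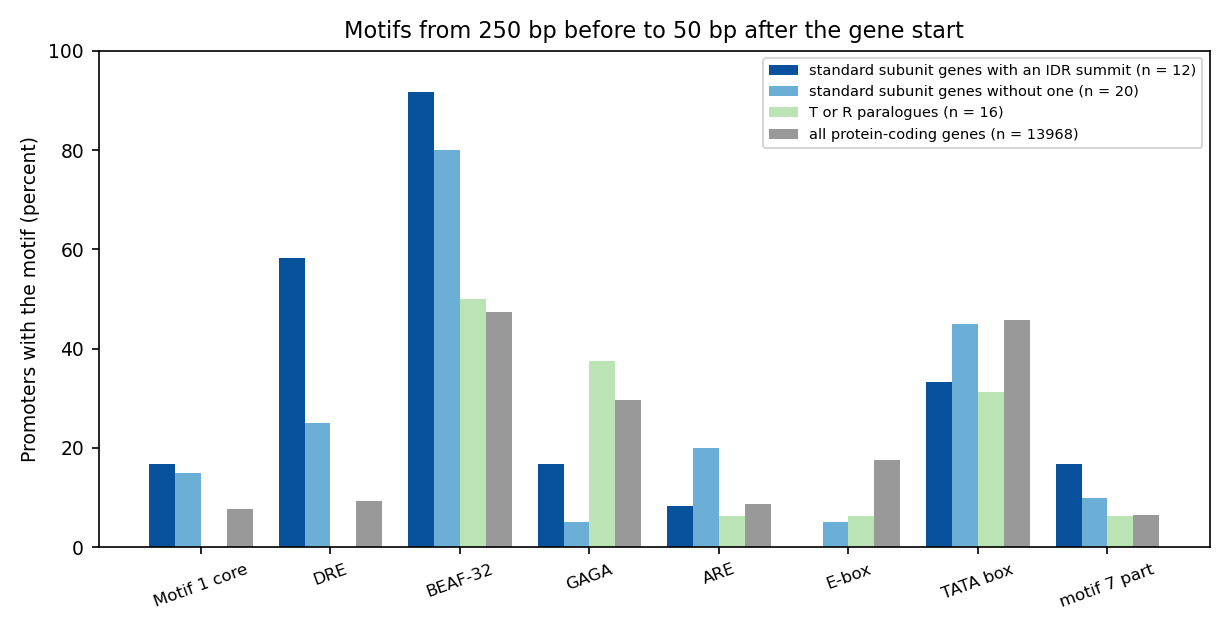
Share of promoters with each of 8 motifs, in percent, for the 12 standard subunit genes with an IDR summit, the 20 without, the 16 paralogues and, in grey, all 13968 protein-coding genes. ARE stands for antioxidant response element. The DRE bars stand at 58.3%, 25% and 0 for the 3 proteasome sets, against 9.36% for all.

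The DRE of proteasome promoters is shown with 11 bases on each side, to let promoters of genes with and without an IDR summit be read side by side. Capitals mark the DRE, and the strand is that of the gene. Positions count from the gene start as +1. The stretches are chr2L:19051582-19051611 for Rpn3 (+), chr3R:22462033-22462062 for Rpn7 (−), chr3L:16582801-16582830 for Rpn12 (+) and chr3L:14999930-14999959 for Prosbeta2 (+), which had IDR summits. They are followed by chr3R:23733418-23733447 for Rpn9 (−), chr3R:23752819-23752848 for Rpt5 (+), chr2L:10221324-10221353 for Prosalpha6 (+) and chr3L:16610444-16610473 for Prosbeta6 (−), which had none.
Rpn3: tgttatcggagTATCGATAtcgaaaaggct
Rpn7: gcggtataattTATCGATAattttggggtc
Rpn12: ttgttaaaataTATCGATAttaaagcacaa
Prosbeta2: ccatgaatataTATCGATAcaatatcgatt
Rpn9: gcccggttaaaTATCGATAttctcgcggat
Rpt5: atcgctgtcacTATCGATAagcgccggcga
Prosalpha6: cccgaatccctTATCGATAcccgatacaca
Prosbeta6: gtatgtataccTATCGATAacgtttaagca

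The first base of the DRE was at −197 in Rpn3, +4 in Rpn7, −216 in Rpn12 and −10 in Prosbeta2. From the middle of this DRE to the nearest IDR summit was 181, 179, 167 and 212 bp in these 4 genes, so the summits were not on the DRE shown. At Prosalpha5 and Prosbeta1 the distance was 18 and 47 bp, and at Rpn13 it was 150 bp. Only sites inside the promoters are given here. The 4 of 13 summits with a DRE within 100 bp therefore include sites that are not listed. In the 5 genes without an IDR summit the DRE began at −95 in Prosalpha3, +27 in Rpn9, −46 in Rpt5, −16 in Prosalpha6 and −44 in Prosbeta6.

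Genes that act with the proteasome were counted the same way. Of 15 activators, assembly factors and associated factors, 5 had an IDR promoter summit, against the 22.8% of all protein-coding genes. The strongest was Pomp, the chaperone that assembles the 20S core, with a signal of 499.7 and place 833, and with places 1570, 1050 and 594 in replicates 1, 2 and 3. Its summit lay 200 bp upstream of the TSS. In the pooled list and in replicate 3 its peak was stronger than any at the subunit genes, but in replicate 1 Rpn5, Rpn13 and Rpn11 and in replicate 2 Rpn13 and Rpn3 were stronger. The other 4 were ntc and PI31, which in flies regulate proteasomes together, and Ufd1 and TER94, parts of the p97 segregase that pulls ubiquitinated proteins from complexes. Their places were 1582, 4255, 1535 and 2886. PI31 was strong in replicates 1 and 2 but had place 10198 in replicate 3, while ntc, Ufd1 and TER94 were strong in each. Of the factors in the control of proteasome gene transcription, 4 of 4 had a summit, against the 22.8% of all protein-coding genes. These were cnc, the fly Nrf factor, at place 1325, its partner maf-S at 3533, its inhibitor Keap1 at 2263, and Pngl at 2525, whose mammalian counterpart is needed to activate Nrf1. In replicates 1, 2 and 3 maf-S had places 10165, 3068 and 4954, strong in replicate 2 alone. At cnc, Keap1 and Pngl the peak was strong in each replicate. The cnc summit lay 385 bp downstream of 1 of the gene's 10 TSSs.

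Among ubiquitin genes and activating enzymes of ubiquitin and its relatives, 5 of 9 had a summit, against the 22.8% of all protein-coding genes. Uba2, part of the SUMO activating enzyme, was strongest, with a signal of 889 and place 285, and with places 367, 256 and 336 in the 3 replicates. Uba3, part of the NEDD8 activating enzyme, had place 744, and Uba1, the ubiquitin activating enzyme itself, had place 2140. The polyubiquitin genes Ubi-p63E and Ubi-p5E had places 2406 and 4196. Ubi-p5E had no summit in replicate 1 and places 3796 and 3876 in replicates 2 and 3. Of the 9 genes of the COP9 signalosome, a complex related to the lid that removes NEDD8, 3 had a summit: alien (CSN2), CSN3 and CSN5, at places 715, 2217 and 3385. That is 33.3%, against the same 22.8%. CSN5 was strong in replicates 1 and 2 but had place 16021 in replicate 3.

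The ribosomal protein and aminoacyl-tRNA synthetase genes, the only other housekeeping families counted here, had summits at larger shares of genes than the proteasome. The 32 standard proteasome genes reached 37.5%, against 57 of 88 cytosolic ribosomal protein genes (64.8%) and 9 of 18 aminoacyl-tRNA synthetase genes (50%). Over the strong peaks of the 3 replicates the mean was 35.4% ± 4.77 for the standard proteasome genes, 64.8% ± 5.68 for the ribosomal protein genes and 50% ± 5.56 for the synthetase genes (SD, n = 3). The proteasome stood below both by more than the spread between replicates. That spread describes the lists for fixed genes and does not measure the uncertainty from the small number of genes in a family. Paralogues were set aside for the proteasome only. The median signal of the strongest promoter peak per gene was 270 in the proteasome, 371 in the ribosomal protein genes and 282 in the synthetase genes.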

How the data were processed

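Dek-GFP ChIP-seq of 3 embryo replicates (fragments of 200 to 800 bp, per the labels) was analysed from 5 deposited narrowPeak lists on dm6. The signal of each peak is the authors' own value. The sources used here give neither its unit nor the aligner, peak caller and IDR cut-off. The deposited −log10 q-value served to describe lists: its lowest value was 3.25 in the IDR list, 0.334 in the pooled list and 0.186, 0.406 and 0.407 in replicates 1, 2 and 3, so the long lists end in peaks that are not significant. Among the 4736 strongest replicate peaks it was at least 1.73, 3.39 and 3.99. The files used give no read counts, so depth is unknown, and signals are compared within a list only. A control experiment that the labels name was not analysed here.

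TSSs came from Ensembl release 115 and sequence from RefSeq's dm6 assembly (Release 6), where all 48 genes had the same arm, start and end. Every TSS within 500 bp of a summit was counted, so 1 summit can serve a pair of genes. Gene assignment was tested on simulated summits at TSSs far from any other protein-coding TSS, so summits shared by a pair of genes were not covered. The members, lists and motifs were chosen with earlier results of these data known, and shares are descriptions with no test. Members with an IDR summit were named in full, others where their pooled place was within 10000, the rest because every member is accounted for. Analyses used Python 3.11.15, numpy 2.4.6, pandas 2.3.3 and matplotlib 3.10.9. Alternatives were the window, the list, 1 TSS per gene, the nearest gene only, and leaving out each replicate or the genes with another TSS within 1000 bp. The replicates are labelled biological, and no sequence of a protein was used here.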

Additional observations from a re-analysis of the deposited data

How the results depend on the processing

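The count of 12 proteasome genes was 6 among the 2368 strongest IDR peaks (13.2% of all protein-coding genes), 24 in the pooled list (48.8%) and 6 with the nearest gene only (17.0%). Of the 22 proteasome genes with no other TSS within 1000 bp, 3 had a summit (13.6%), against 13.5% of all 7983 such genes. These were 3 of 10 standard genes (30%) and 0 of 12 paralogues. Requiring both remaining replicates gave 6 to 9 genes. The lid count of 7 was 4 among those 2368 peaks and with the nearest gene only, and 3 to 6 with a replicate left out. It was 2 without a close TSS, but Rpn11 and Rpn12 are the only lid genes of that kind, and both had a summit. The lid was chosen after seeing the data, as were its alternatives. The mean replicate share of 23.6% was 19.4% within 200 bp, 12.5% with the 2368 strongest peaks of each list, 54.2% with all peaks and 12.5% with the nearest gene only. With all peaks, all protein-coding genes gave 44.5%, 52.5% and 50.1% in replicates 1, 2 and 3. For the other settings no such replicate share is given here, so a change in the proteasome genes cannot be told apart from one in all genes. In the IDR list the share of all protein-coding genes was 16.2% within 200 bp. The median signal of 263 was 212 within 200 bp, 358 among the 2368 strongest, 151 in the pooled list and 293 to 358 with a replicate left out. The median position of −146 bp was −70 within 200 bp, −70.5 in the pooled list, −78 with 1 TSS per gene, −54 with the nearest gene only and −70 to −154.5 with a replicate left out. The mean GC content of 30.9% was 34.6% in the pooled list. The shorter and longer lists change these values by their construction. The narrower window, the nearest gene only, the genes without a close TSS and the requirement on the remaining replicates can only lower the counts. The IDR list itself, made from all 3 replicates, stayed the same when a replicate was left out. The cause of the other changes was not tested. No paired analysis was possible because all replicates belong to 1 group. Without read counts, a peak missed for lack of depth cannot be told apart from one that is absent.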
